A study of Mus musculus with 12 samples.

Results

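The 10 genes described here form the MHC class II presentation pathway of the B cell: the transactivator Ciita, the chains H2-Aa, H2-Ab1 and H2-Eb1, the invariant chain Cd74, the peptide-exchange factor subunits H2-DMa, H2-DMb1 and H2-DMb2, and the subunits H2-Oa and H2-Ob of its inhibitor. They were taken by symbol from a table of 37991 genes, with no filter on their values, and occupied 11 entries of it because Ciita has 2 Ensembl entries. The set itself was chosen with earlier results of these data known. RNA was sequenced from resting B cells of the mouse spleen, in 12 libraries that fell into 4 groups of 3 replicates, which the study calls biological. Runx1 c-k/o mice, called knockout below, carried loxP-flanked Runx1 alleles and the CD23-iCre transgene, which removes exon 4 of Runx1 from the transitional B cell stage onward. Cre-only control mice carried the CD23-iCre transgene too, with no conditional Runx1 allele named in their labels, so all 4 groups shared the transgene. The mice were C57B6 by the study's methods and 8 weeks old by the labels. Cells were either resting (0 h) or incubated for 3 h with anti-IgM, which stimulates the B cell receptor, and IL-4. They were purified by depletion of other cells, CD43+ activated B cells among them, so the libraries are of bulk RNA from a purified population. The sources used here name no library batch and do not say whether the same mouse gave a resting and a 3-h sample.

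MHC class II molecules are heterodimers of an alpha and a beta chain that carry peptides of ingested proteins to the surface of antigen-presenting cells, where CD4+ T cells read them. The invariant chain occupies the groove while the dimer travels to the endosome, proteases trim it to a short peptide called CLIP, and H2-DM exchanges CLIP for antigenic peptide. H2-DO binds H2-DM and restrains it, and is known chiefly from B cells. Ciita does not bind DNA itself: it joins the RFX, CREB and NF-Y factors assembled on the X and Y boxes of class II promoters. IL-4 is a classical inducer of surface class II on resting B cells. The H2-E alpha gene is defective in C57BL/6 mice, which therefore show no H2-E dimer at the surface although H2-Eb1 is transcribed.

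RefSeq promoter sequences (GRCm38.p6) matched 7 of the 10 genes and gave none for H2-Ab1, Cd74 and Ciita. They are shown because 2 of the genes that rose and 2 of those that fell most on activation share the same arrangement of boxes. Capitals mark the core of the X box (GCAAC) and of the Y box (ATTGG) on the gene's own strand. Each stretch covers the bases from 130 to 21 upstream of the annotated start.
H2-Aa, chr17:34287844-34287953, minus strand: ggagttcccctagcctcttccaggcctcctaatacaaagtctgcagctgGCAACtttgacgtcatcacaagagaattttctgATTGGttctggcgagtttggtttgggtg
H2-Eb1, chr17:34305737-34305846, plus strand: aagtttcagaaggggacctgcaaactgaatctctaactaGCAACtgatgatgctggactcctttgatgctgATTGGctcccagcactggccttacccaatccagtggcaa
H2-Oa, chr17:34092249-34092358, plus strand: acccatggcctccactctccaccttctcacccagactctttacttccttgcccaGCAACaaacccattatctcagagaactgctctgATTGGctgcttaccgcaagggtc
H2-Ob, chr17:34238775-34238884, plus strand: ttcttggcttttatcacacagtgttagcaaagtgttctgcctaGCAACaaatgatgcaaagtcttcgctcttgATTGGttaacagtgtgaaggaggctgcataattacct
H2-DMb1, chr17:34153061-34153170, plus strand: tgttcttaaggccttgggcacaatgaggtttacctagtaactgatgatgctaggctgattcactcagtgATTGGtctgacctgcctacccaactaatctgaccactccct
H2-DMb2, chr17:34145119-34145228, plus strand: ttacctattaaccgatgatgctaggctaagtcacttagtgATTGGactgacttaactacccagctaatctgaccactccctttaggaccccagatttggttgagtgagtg

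In H2-Aa, H2-Eb1, H2-Oa and H2-Ob the X core was followed by the Y core, 30 to 33 bases further on by their first letters. Only 0.362% of 32851 RefSeq promoters hold that order at a distance of 25 to 40 bases within the 250 bases upstream, a window chosen after these sequences were seen. ATTGG by itself stands in 33.8% of promoters and GCAAC in 29.9%, either strand counted. The core TGACG of the X2 box, which CREB binds, was found upstream of H2-Aa on both strands, in overlapping matches, and stands in 17.8% of promoters. The RUNX motif TGTGGT stands in 14% of promoters. Among the members it was found 154 bases upstream of the H2-DMb1 start on the other strand, and 64 bases upstream of the second of the 2 starts of H2-DMa. These are matches of letters and not measured binding.

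Of the 10 genes, 8 lie together on chromosome 17 (NCBIM37), from the start of H2-Oa at 34229285 to the end of H2-Eb1 at 34453144, in the order H2-Oa, H2-DMa, H2-DMb2, H2-DMb1, H2-Ob, H2-Ab1, H2-Aa and H2-Eb1. H2-Aa is on the minus strand and the other 7 are on the plus strand. Ciita lies on chromosome 16 from 10480237 to 10527657, and Cd74 on chromosome 18 from 60963502 to 60972300, both on the plus strand. All were counted over their exons. H2-Aa and H2-Ab1 run toward each other and share 17 exon bases on opposite strands, and a miRNA entry overlaps 12 exon bases of Cd74. H2-DMb1 and H2-DMb2 are close copies: 27.1% of the 50-base stretches of H2-DMb1 transcripts also occur in H2-DMb2, so the division of reads between these 2 genes is uncertain. For the 8 other members 0% of such stretches occur in another coding gene. The smaller Ciita entry, nested within an intron of the main one, held 49 to 146 counts and is left aside below, where Ciita means the main entry.

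Totals ran from 14442251 to 23641552 counts per library, and a floor of 3 counts, which covers counting error only, stood at 0.127 to 0.208 CPM (counts scaled to a fixed library size). The members lay far above it and together held 2.41% to 3.44% of each library's counts. Values below are CPM normalized by TMM scaling unless they are said to be per length. Tests are edgeR's quasi-likelihood F test over 13538 genes with Benjamini-Hochberg adjustment, and a gene was called at an adjusted p under 0.05. Of the 12 libraries 2 stood apart by the share of counts in their most abundant genes: replicate 2 of the resting and replicate 1 of the 3-h knockout cells. Their 100 most abundant genes held 23.7% and 23.1% of counts against 18.6% to 21.8% in the other 10 libraries. As a root mean square log2 difference over genes, replicate 1 of the 3-h knockout cells lay 0.619 from its group mates, the farthest of the 12. By that measure replicate 2 of the resting knockout cells, at 0.490, was farthest among the resting libraries but no farther than replicate 2 of the 3-h knockout cells, at 0.493. Runx1 itself ranged from 81.8 to 86.7 (Cre-only) and 95.7 to 103 (knockout) at rest, and from 34.9 to 38.5 and 47.3 to 74.5 after 3 h. The counts cover all of its exons and do not separate the deleted one, so they do not check the deletion. The summed level of 6 B cell markers was 6361 to 7438 at rest and 4234 to 5074 at 3 h, with none at 0, and that of 11 T and NK cell markers was at most 11.9 in any library. For 10 erythroid and granulocyte markers the sum at rest was 50.2 to 350 in Cre-only and 328 to 546 in knockout cells. At 3 h it was 18.5 to 185 and 153 to 270, and of the 8 tested none was called between genotypes.

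Cd74 and the 3 class II chains were among the most abundant transcripts of these cells. Per exon length (RPKM), Cd74 led in resting Cre-only cells at 7666 ± 184 (SD, n = 3 here and below), followed by H2-Eb1 at 2464 ± 125, H2-Aa at 2139 ± 117 and H2-Ab1 at 1872 ± 77.7. The exchange factor and its inhibitor were lower: H2-DMb2 was at 517 ± 23.6, H2-Ob at 411 ± 15.8 and H2-DMa at 239 ± 8.79 RPKM. H2-DMb1, at 182 ± 15.2, and H2-Oa, at 179 ± 9.18 RPKM, overlapped, and every other pair of neighbours in this order was separate in all 3 libraries. Ciita came last at 77.4 ± 7.04 RPKM, 99.1-fold below Cd74. After 3 h of activation the Cre-only order was Cd74 at 5556 ± 101, H2-Eb1 at 3774 ± 37.8, H2-Aa at 3433 ± 56.5 and H2-Ab1 at 2408 ± 86.4 RPKM. Further down it was H2-DMb2 at 286 ± 20.4, H2-Ob at 140 ± 2.37 and H2-DMa at 125 ± 6.09 RPKM. Ciita, at 114 ± 5.63, had moved up to overlap H2-DMb1, at 109 ± 2.07 RPKM, and H2-Oa was last at 43.2 ± 2.44. The order of the means was the same in resting knockout cells but for H2-Oa and H2-DMb1, which overlapped there too. At 3 h the knockout libraries of Cd74, H2-Eb1 and H2-Aa each overlapped those of the next gene in order, and those of H2-Ab1 were separate from H2-DMb2.

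**Figure D1:**
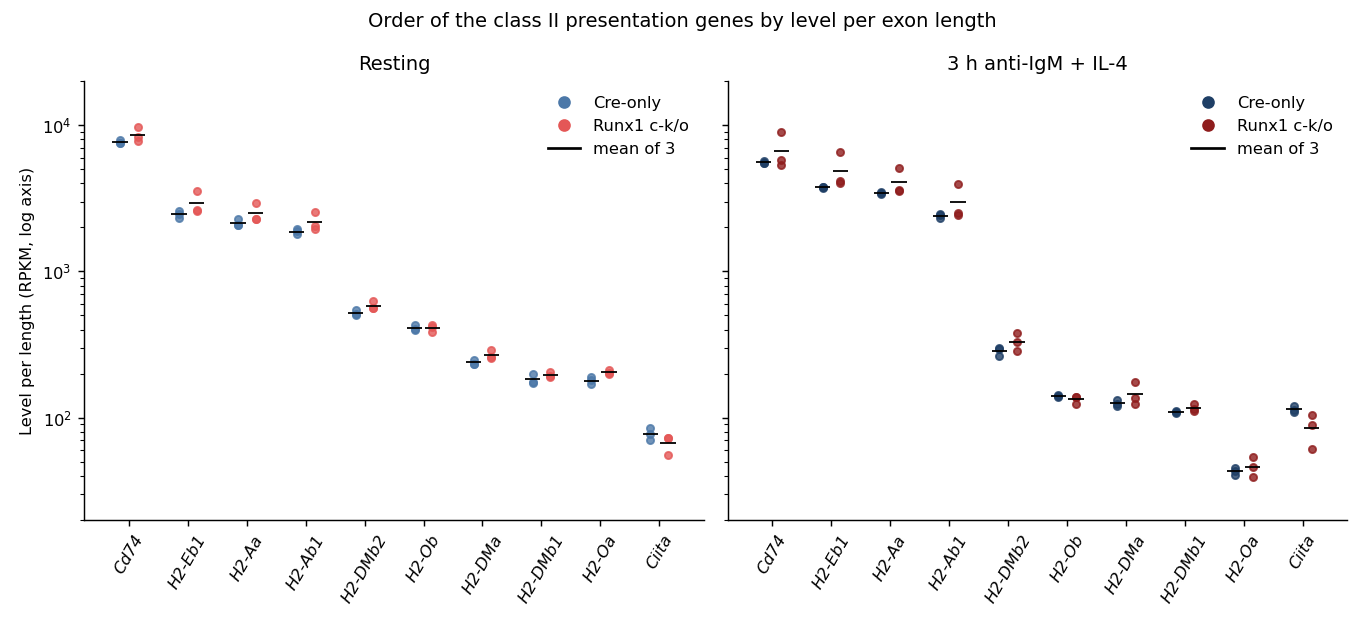
Level per exon length (RPKM, logarithmic axis) of the 10 genes in resting (left) and 3-h (right) cells; each point is a library and each bar the mean of 3. Cd74 was highest in every group, and H2-Oa took the last place from Ciita at 3 h.

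Activation for 3 h moved the members in both directions, as it did tested genes at large. In Cre-only cells 9 of the 10 genes were called, 3 higher and 6 lower, where 75.0% of all tested genes were called (38.6% higher and 36.4% lower). H2-Aa, H2-Eb1 and Ciita rose, H2-Eb1 with a change of sign when a factor of unwanted variation was fitted, while Cd74 and the subunits of H2-DM and H2-DO fell, by 4.15-fold for H2-Oa. The call of H2-Aa was lost with that factor, and those of H2-Eb1 and Ciita with upper quartile normalization. The 10 genes had a median log2 change of -0.60, against 0.03 over all tested genes. All 10 had 3-h libraries wholly above or wholly below the resting ones, 4 above and 6 below, as had 84.4% of tested genes (43.8% above and 40.6% below). In knockout cells 8 were called, 3 higher and 5 lower, where 74.3% of genes were called (37.7% higher and 36.6% lower). Their median log2 change was -0.55, against 0.00 over all genes, and the groups did not overlap for 7 of the 10, 2 above and 5 below, as for 72.8% of genes (36.5% above and 36.3% below).

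Ciita, the class II transactivator, was at 437, 524 and 480 in resting Cre-only libraries 1, 2 and 3, and at 747, 705 and 678 after 3 h. In knockout cells it was at 452, 343 and 454 at rest and at 381, 552 and 645 after 3 h. Every 3-h Cre-only library was above every resting one, whereas in knockout cells replicate 1 at 3 h fell among the resting values. Ciita rose 1.48-fold in Cre-only cells (log2 0.56, SE 0.173, edgeR adjusted p = 0.0105). This call was lost with upper quartile normalization (0.30, edgeR adjusted p = 0.153), which moved the median of all genes by -0.26 in this comparison and by -0.21 in knockout cells. It was lost too with at least 10 counts required in every library (0.41, edgeR adjusted p = 0.0582). In knockout cells the log2 change was 0.34 (95% interval -0.04 to 0.71, edgeR adjusted p = 0.0948) and was not called. Without replicate 1 of the 3-h knockout cells it was 0.51 (edgeR adjusted p = 0.00452). With 1 factor of unwanted variation (RUVs) in the fit it was larger and called in both genotypes, at 1.24 in Cre-only and 1.02 in knockout cells by edgeR (adjusted p = 2.15e-05 in the latter). The factor ran from 0.150 to 1.04 in resting and from -2.08 to -0.375 in 3-h libraries. It thus overlaps with time, and activation changes fitted beside it do not strengthen a call.

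H2-Aa, the alpha chain of the H2-A dimer, was at 4122, 4519 and 4108 at rest and 6773, 6743 and 6950 at 3 h in Cre-only cells. In knockout cells it was at 4537, 5849 and 4544 at rest and at 10066, 6991 and 7111 at 3 h. All 3-h libraries lay above all resting ones in both genotypes, with replicate 1 of the 3-h knockout cells far above the rest. H2-Aa rose 1.61-fold in Cre-only (log2 0.68, SE 0.157, edgeR adjusted p = 0.00167) and 1.62-fold in knockout cells (0.69, SE 0.157, edgeR adjusted p = 0.00152). H2-Eb1, the H2-E beta chain, was at 2773, 3069 and 2949 at rest and 4436, 4518 and 4509 at 3 h in Cre-only cells. Its knockout values were 3130, 4214 and 3082 at rest and 7724, 4909 and 4815 at 3 h. The resting and 3-h libraries were again separate in both genotypes, and the increase was 1.53-fold in Cre-only (log2 0.61, edgeR adjusted p = 0.00871, and 0.0707 with upper quartile normalization) and 1.67-fold in knockout cells (0.74, edgeR adjusted p = 0.00278).

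H2-Ab1, the beta chain that pairs with H2-Aa, was at 2948, 3203 and 3082 at rest and 3797, 4010 and 4067 at 3 h in Cre-only cells. The knockout values were 3359, 4170 and 3178 at rest and 6537, 4091 and 3976 at 3 h. The Cre-only groups were separate but the knockout groups overlapped, as replicate 2 at rest exceeded replicates 2 and 3 at 3 h. The log2 change of 0.36 in Cre-only cells (95% interval -0.03 to 0.75) missed the threshold at an edgeR adjusted p of 0.0848. It passed with only the groups compared in the fit (0.29, edgeR adjusted p = 1.77e-05). It passed too without replicate 1 of the 3-h knockout cells, a library of the other genotype that enters the shared estimate of the spread (0.31, edgeR adjusted p = 0.00560). In knockout cells 0.45 was called (edgeR adjusted p = 0.0391), and without that library it was 0.17 (edgeR adjusted p = 0.135). This call was also lost with DESeq2 size factors (edgeR adjusted p = 0.0609), upper quartile normalization (0.198), 10 counts in every library (0.0844), only the groups compared (0.151) and either replicate block (0.0584 and 0.0830). The ratio of H2-Aa to H2-Ab1 per length went from 1.14 ± 0.0346 to 1.43 ± 0.0436 in Cre-only and from 1.15 ± 0.0334 to 1.39 ± 0.105 in knockout cells, with no overlap between times. With 3 libraries against 3 the exact permutation test cannot give less than 0.1, the p of both changes. With the RUVs factor the activation changes of H2-Ab1 and H2-Eb1 took a negative sign in both genotypes. That of H2-Aa was then 0.12 in Cre-only (edgeR adjusted p = 0.302) and 0.0969 in knockout cells (edgeR adjusted p = 0.409), called in neither. The values of this factor were also separate between all resting and all 3-h libraries.

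Cd74, which encodes the invariant chain, went the other way from the chains it escorts. It was at 10630, 11106 and 10690 at rest and 7998, 7745 and 7758 at 3 h in Cre-only cells, and at 11617, 13611 and 10892 at rest and 12577, 8089 and 7470 at 3 h in knockout cells. The Cre-only times were separate, and among the knockout libraries only replicate 1 at 3 h lay in the resting range. Cd74 fell by 0.46 on the log2 scale in Cre-only cells (SE 0.178, edgeR adjusted p = 0.0314). This call was lost without any single Cre-only library, at an edgeR adjusted p of 0.0634 to 0.0833. It was stronger without replicate 1 of the 3-h knockout cells, which enters the shared estimate of the spread (-0.51, edgeR adjusted p = 8.00e-05). With resting and 3-h samples of 1 number paired as a replicate block within each genotype the adjusted p of edgeR was 0.0527. In knockout cells the log2 change was -0.36 (95% interval -0.75 to 0.03, edgeR adjusted p = 0.0837), and without replicate 1 at 3 h it was -0.64 (edgeR adjusted p = 4.49e-05). The Wald test of DESeq2 called it (-0.39, adjusted p = 0.0452). With the RUVs factor the decrease of Cd74 was larger and called in both genotypes, at -1.23 in Cre-only and -1.14 in knockout cells by DESeq2 (adjusted p = 1.35e-24 and 3.57e-20). Since that factor overlaps with time, these values do not strengthen the call. Per length, H2-Aa stood at 0.279 ± 0.00865 of Cd74 at rest and 0.618 ± 0.0175 at 3 h in Cre-only cells, and at 0.293 ± 0.0142 and 0.619 ± 0.0540 in knockout cells. The ratio was 2.22-fold and 2.11-fold higher at 3 h with no overlap of libraries (exact permutation p = 0.1, the smallest possible).

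**Figure D2:**
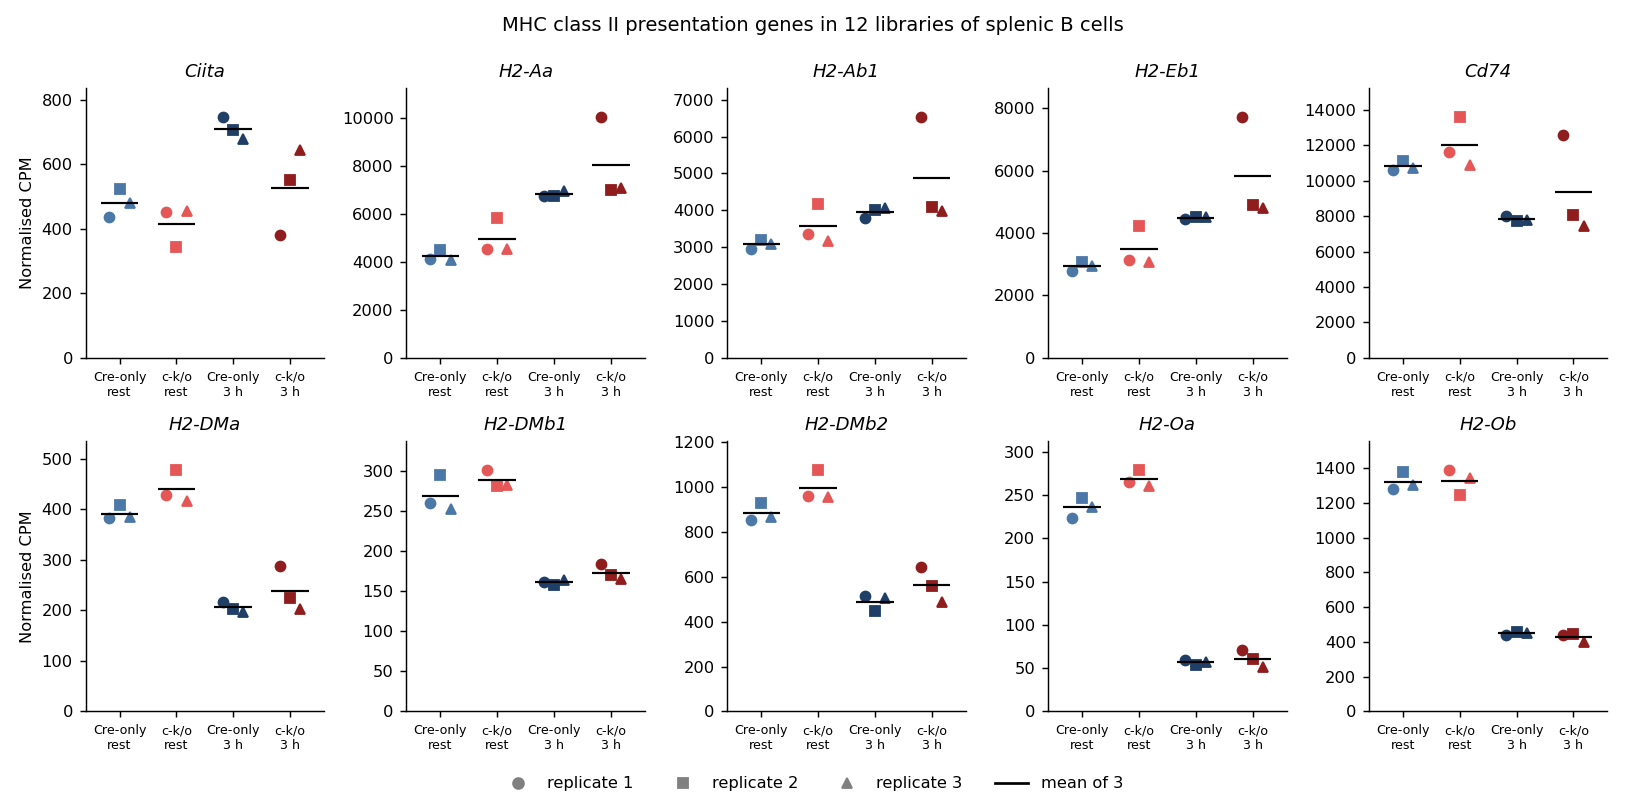
Normalized CPM of each of the 10 genes in the 12 libraries, with a linear axis from 0; each symbol is a replicate and each bar the mean of 3. Replicate 1 of the 3-h knockout cells is the highest 3-h library for H2-Aa, H2-Ab1, H2-Eb1 and Cd74 and the lowest for Ciita.

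The H2-DM subunits fell together. H2-DMa was at 383, 409 and 384 at rest and 217, 203 and 198 at 3 h in Cre-only cells, and at 428, 478 and 418 at rest and 289, 225 and 202 at 3 h in knockout cells. H2-DMb1 went from 253 to 295 at rest to 159 to 165 at 3 h in Cre-only cells, and from 282 to 301 to 165 to 184 in knockout cells. H2-DMb2 went from 854 to 930 to 450 to 515 in Cre-only and from 955 to 1076 to 489 to 644 in knockout cells. No 3-h library of these 3 genes reached a resting one. The decreases in Cre-only cells were 1.90-fold for H2-DMa (log2 -0.93, edgeR adjusted p = 1.94e-05), 1.67-fold for H2-DMb1 (-0.74, edgeR adjusted p = 5.73e-06) and 1.8-fold for H2-DMb2 (-0.85, edgeR adjusted p = 2.38e-05). In knockout cells they were 1.85-fold, 1.67-fold and 1.77-fold (log2 -0.89, -0.74 and -0.82). With the RUVs factor in DESeq2, which overlaps with time, the change of H2-DMa was larger, at -1.44 and -1.38. H2-DMb2 stood 2.84 ± 0.120 times above H2-DMb1 per length at rest and 2.62 ± 0.152 at 3 h in Cre-only cells, groups that overlapped.

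The H2-DO subunits fell most. H2-Oa was at 223, 247 and 237 at rest and 59.9, 53.5 and 56.8 at 3 h in Cre-only cells. In knockout cells it was at 265, 279 and 261 at rest and at 70.5, 60.7 and 51.5 at 3 h. The decrease was 4.15-fold in Cre-only (log2 -2.05, SE 0.110, edgeR adjusted p = 2.08e-08) and 4.41-fold in knockout cells (-2.14, SE 0.110, edgeR adjusted p = 2.56e-08). H2-Ob was at 1280, 1378 and 1306 at rest and 443, 458 and 450 at 3 h in Cre-only cells, and at 1388, 1245 and 1341 at rest and 442, 444 and 399 at 3 h in knockout cells. No 3-h library reached a resting one, and the decrease was 2.93-fold in Cre-only (log2 -1.55, SE 0.0916, edgeR adjusted p = 3.30e-08) and 3.09-fold in knockout cells (-1.63, SE 0.0919, edgeR adjusted p = 3.90e-08). The RNA of the inhibitor's subunits stood lower relative to that of the factor it restrains at 3 h than at rest. These libraries measure no protein. H2-Oa over H2-DMa per length went from 0.751 ± 0.0209 to 0.344 ± 0.0146 in Cre-only and from 0.761 ± 0.0276 to 0.320 ± 0.0161 in knockout cells. H2-Ob over the sum of the levels of H2-DMb1 and H2-DMb2 went from 0.588 ± 0.0109 to 0.355 ± 0.0261 and from 0.530 ± 0.0506 to 0.300 ± 0.0220. No library of the 2 times overlapped in any of these 4 comparisons, where the exact permutation test gave its smallest possible p of 0.1. After adjustment over the 24 comparisons of ratios that p was 0.200.

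**Figure D3:**
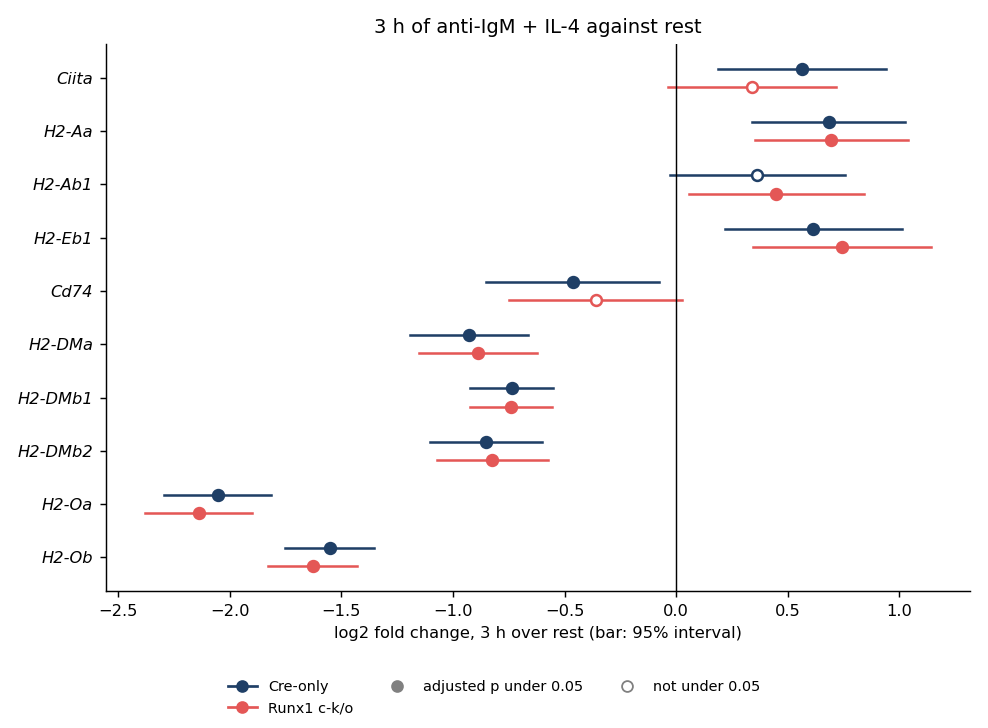
Log2 fold change of each gene after 3 h of anti-IgM and IL-4, with bars for the 95% interval, in Cre-only and knockout cells; filled points passed the adjusted threshold. Ciita and the 3 chains lie to the right of 0 (H2-Ab1 and H2-Eb1 changed sign with the RUVs factor) and the other 6 genes to the left, down to -2.14 for H2-Oa.

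Markers of other antigen-presenting cells moved with these changes. The summed level of 16 dendritic cell and macrophage markers was 474 to 592 at rest and 60.8 to 70.8 at 3 h in Cre-only cells, and 422 to 897 and 58.5 to 116 in knockout cells, with none at 0. Of the 16, 13 fell and 1 rose in Cre-only cells, where 36.4% of all tested genes were called lower and 38.6% higher. In knockout cells 14 fell and 1 rose, where 36.6% were called lower and 37.7% higher. Most of the sum came from the complement genes C1qa, C1qb and C1qc, Csf1r and Adgre1, markers of macrophages. Among the dendritic cell markers Flt3 went from 16.5 to 6.14 in Cre-only cells, and Itgax had group means of 5.47 to 9.66. Zbtb46, a transcription factor of conventional dendritic cells, was the marker that rose, from 1.45 to 17.8 in Cre-only cells (log2 3.63, edgeR adjusted p = 8.55e-06). Xcr1, Clec9a, Siglech and Cd209a had group means of at most 2.24. The part of these cells in the class II changes was not tested. Of these 6 B cell markers, 4 fell in each genotype, to be set beside the same shares of all genes. Among them were Cd79a (log2 -2.57 in Cre-only cells) and Pax5 (-2.0), while Cr2 rose (1.10). In bulk RNA fewer cells of a type and less RNA per cell cannot be told apart. With the TMM scaling used here, neither can less RNA of a gene and more RNA of all the others. That scaling makes no use of the ERCC RNA that the study added to its lysates.

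The comparison of genotypes asks what loss of Runx1 changed. None of the 10 genes was called by edgeR at rest, where 1.49% of tested genes were called (0.731% higher and 0.761% lower). None was called at 3 h either, where 2.77% were (1.47% higher and 1.30% lower). With no adjustment, at p under 0.05, the count was 0 at rest and 1 at 3 h. The Wald test of DESeq2 called 0 at both times. With the RUVs factor 0 were called at rest, and at 3 h 1 by edgeR (Ciita) and 2 by DESeq2 (Ciita and H2-Eb1). The study itself tested with DESeq2 and RUV-seq factors, whose number its methods do not give. Sizes were small throughout: log2 differences of knockout from Cre-only cells ran from -0.21 for Ciita to 0.25 for H2-Eb1 at rest and from -0.43 for Ciita to 0.37 for H2-Eb1 at 3 h. They were above 0 for 9 of 10 genes at rest (median 0.17, against 0.03 over all genes), though H2-Ob was below 0 in some alternatives, and for 8 of 10 at 3 h (0.21 against 0.01). At rest 5 genes had knockout libraries all above the Cre-only ones (H2-Aa, H2-Eb1, H2-DMa, H2-DMb2 and H2-Oa) and 0 all below, where 23.7% of tested genes did not overlap (12% above and 11.6% below). At 3 h it was 3 above (H2-Aa, H2-Eb1 and H2-DMb1) and 1 below (Ciita), where 21.8% did not overlap (9.50% above and 12.3% below).

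The excess of the abundant members was largest in 1 library at each time but was not confined to it. H2-Aa and H2-Eb1 had every knockout library above every Cre-only one at both times. H2-Aa, H2-Ab1, H2-Eb1 and Cd74 together lay 0.358 above their group mates, as a mean log2 difference, in replicate 2 of the resting knockout cells, and 0.643 above them in replicate 1 of the 3-h knockout cells, the 2 libraries that stood apart. The same mean was between -0.351 and 0.0959 in the other 10. H2-Aa, H2-Ab1, H2-Eb1 and Cd74 were among the 100 most abundant genes, whose share of counts set the 2 libraries apart. That choice thus partly used their own values, and a smaller difference without these libraries is in part built in. Without these 2 libraries the 10 genes' median log2 difference was 0.09 at rest and 0.06 at 3 h, with 0 called at both times, and 9 of 10 and 8 of 10 were above 0. H2-Eb1 at 3 h then went from 0.37 (95% interval -0.02 to 0.77, edgeR adjusted p = 0.333) to 0.14 (edgeR adjusted p = 0.201). Cd74 at 3 h went from 0.26 (95% interval -0.13 to 0.65) to 0.01. H2-Oa at rest was less dependent on them, 0.19 with (95% interval -0.04 to 0.41, edgeR adjusted p = 0.564) and 0.16 without. H2-Ob differed least, by 0.00 at rest (95% interval -0.19 to 0.20) and -0.07 at 3 h (-0.27 to 0.12).

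Ciita differed most between genotypes at 3 h, and downward. All 3 of its 3-h knockout libraries (381, 552 and 645) were below all 3 Cre-only ones (678 to 747), and the log2 difference was -0.43 (SE 0.173, 95% interval -0.81 to -0.06, unadjusted p = 0.0279 from edgeR, edgeR adjusted p = 0.248). Without replicate 1, its lowest library, the difference was -0.23 (edgeR adjusted p = 0.572). With the RUVs factor it was called in both tools (edgeR -0.33, adjusted p = 0.0292; DESeq2 -0.29, adjusted p = 0.0161), and over all 22 alternatives it ran from -0.60 to -0.23. At rest the log2 difference was -0.21 (95% interval -0.58 to 0.17), and the groups overlapped. The factor also had H2-Eb1 called higher at 3 h in DESeq2 (0.24, adjusted p = 0.00199) but not in edgeR. Its values set the same libraries apart, at 0.150 in replicate 2 of the resting and -2.08 in replicate 1 of the 3-h knockout cells, against 0.941 to 1.04 in the 5 other resting and -0.740 to -0.375 in the 5 other 3-h libraries.

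**Figure D4:**
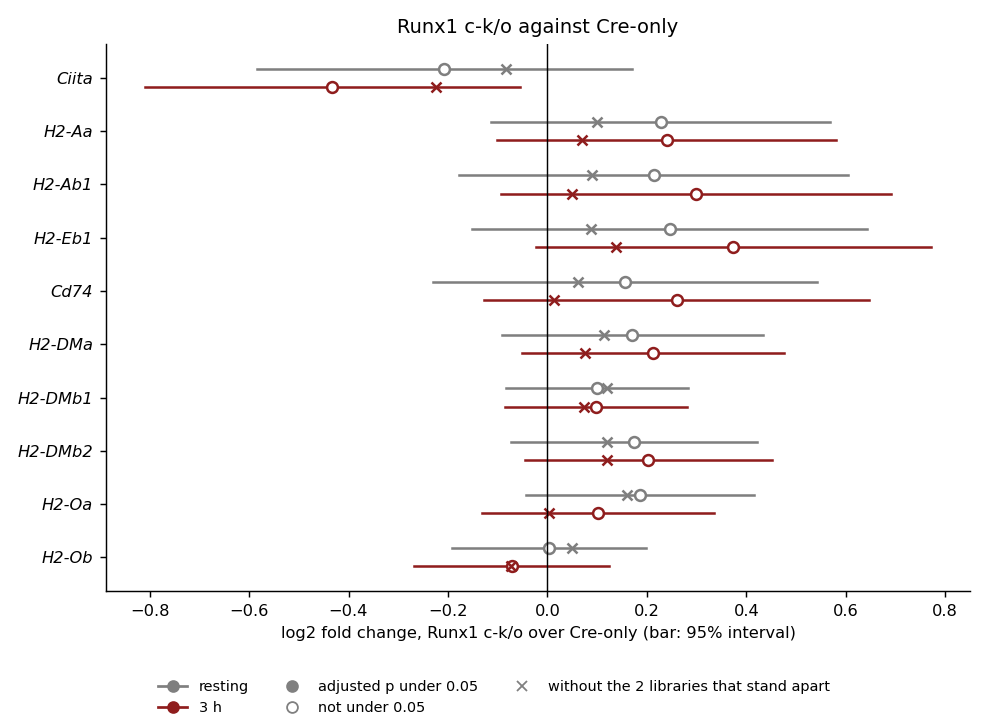
Log2 difference of knockout from Cre-only cells for each gene at rest and at 3 h, with bars for the 95% interval; crosses give the value without the 2 libraries that stood apart. No point is filled, since none passed the adjusted threshold, and the crosses of H2-Aa, H2-Ab1, H2-Eb1 and Cd74 lie between 0.01 and 0.14.

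Whether activation changed the members differently in the 2 genotypes was tested by the interaction of genotype and time. None of the 10 was called by edgeR, none had an unadjusted p under 0.05, and DESeq2 called 0; 0.0813% of tested genes were called by edgeR (0.0665% higher and 0.0148% lower). The interaction was largest for Ciita, at -0.23 (95% interval -0.76 to 0.31, edgeR adjusted p = 0.999), and within -0.08 and 0.13 for the other 9. The calls of Ciita and Cd74 in Cre-only cells alone, and that of H2-Ab1 in knockout cells alone, are thus not shown to be differences between the genotypes. The ratio of H2-Ob to H2-DMb1 plus H2-DMb2 per length was lower in every knockout than in every Cre-only library at each time, 0.530 ± 0.0506 against 0.588 ± 0.0109 at rest and 0.300 ± 0.0220 against 0.355 ± 0.0261 at 3 h. Its exact permutation p was 0.1, the smallest possible, at each time, and 0.200 after adjustment over the 24 comparisons. It was the 1 ratio of the 6 computed that was separate between genotypes: H2-Oa over H2-DMa, the other ratio of H2-DO to H2-DM, overlapped at both times, at 0.761 ± 0.0276 against 0.751 ± 0.0209 at rest.

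The rest of the pathway was read from 7 lists with 47 tested genes. Of these edgeR called 0 between genotypes at either time, where 1.49% and 2.77% of all genes were called. An unadjusted p under 0.05 was found for 6 at rest and 7 at 3 h. The share of all genes at that threshold is not given here, so these counts are not read as an excess. DESeq2 called 2 at rest and 3 at 3 h, where it called 378 and 707 genes in all. Those at rest were H2-Eb2, a class II beta chain gene next to H2-Eb1, which was lower (log2 -0.36, DESeq2 adjusted p = 0.0274), and the asparagine endopeptidase Lgmn, which was higher (0.38, DESeq2 adjusted p = 0.0344). Those at 3 h were higher: the peptide transporter genes Tap1 (0.35, DESeq2 adjusted p = 0.00599) and Tap2 (0.36, DESeq2 adjusted p = 0.0401), which serve class I, and the lysosomal thiol reductase Ifi30 (0.52, DESeq2 adjusted p = 0.0493). The resting level of H2-Eb2 averaged 149 ± 14.4 in Cre-only cells and 116 ± 8.89 in knockout cells (edgeR adjusted p = 0.137). It rose on activation in both, to 233 ± 14.9 (log2 0.65, edgeR adjusted p = 6.54e-05) and 246 ± 14.5 (1.08, edgeR adjusted p = 9.66e-07). The resting difference of H2-Eb2 was called by edgeR with the RUVs factor (-0.38, adjusted p = 0.0125) and without the 2 libraries that stood apart (-0.40, adjusted p = 0.0105). H2-Ea, the defective H2-E alpha gene, had group means of 0.409 to 1.01.

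Counts of list genes called on activation stand beside 75.0% of all tested genes called in Cre-only cells (38.6% higher and 36.4% lower) and 74.3% in knockout cells (37.7% and 36.6%). Of the 7 genes of the promoter complex, the NF-Y subunit Nfyb rose in both genotypes (log2 0.44 in Cre-only and 0.55 in knockout cells). In Cre-only cells the RFX subunit Rfxank fell (-0.28), and in knockout cells Rfx5 (-0.33) and Creb1 (-0.36) fell, the last pair with a change of sign in edgeR under the RUVs factor. The other 5 and 4 were not called, and the median over the list was -0.15 and -0.14. Of 8 listed regulators of Ciita, 8 were called in each genotype, 3 higher and 5 lower, against those 75.0% and 74.3% of all genes. Irf8 (0.78 in Cre-only cells), Stat6 (0.75), the signal transducer of IL-4, and Irf4 (0.36) rose. The germinal centre repressor Bcl6 (-2.02), Pax5 (-2.0), Spi1, which encodes PU.1 (-1.62), and Prdm1, which encodes the Ciita repressor Blimp-1 (-1.14), fell, as did Ebf1 (-0.27), whose sign changed in edgeR under the RUVs factor. Nr4a1 and Sdc1 were the genes called between genotypes among the activation and marker lists: Nr4a1 was higher in knockout cells at 3 h (0.69, edgeR adjusted p = 0.0303), and Sdc1 lower at rest (-1.35, edgeR adjusted p = 0.00157).

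The proteases that cut the invariant chain and antigen fell with H2-DM. Of 9 genes of antigen processing, 8 fell and 1 rose in Cre-only cells, and 7 fell and 1 rose in knockout cells, with medians of -0.94 and -1.24 and against 36.4% and 36.6% of all genes called lower. Ctss, the cathepsin that makes CLIP in B cells, went from 495 ± 16.1 to 174 ± 1.03 in Cre-only cells (log2 -1.51, edgeR adjusted p = 1.47e-07) and by -1.62 in knockout cells. Ctsl (-1.51 and -1.79) and Ctsb (-1.44 and -1.54) fell too, and Ctsz was the gene that rose (0.95 and 0.93). Ifi30 fell in Cre-only cells (-0.71) and was at -0.33 in knockout cells (edgeR adjusted p = 0.0644). Several of these proteases are also abundant in macrophages, whose markers fell at the same time.

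March1, the ubiquitin ligase that sends surface class II to degradation, and Cd83, which opposes it, moved in opposite directions. March1 went from 232 to 7.91 in Cre-only cells (log2 -4.88, edgeR adjusted p = 1.55e-07) and from 242 to 12 in knockout cells (-4.34, edgeR adjusted p = 3.56e-07), and Cd83 from 953 to 2333 (1.29) and from 978 to 2356 (1.27). March8, a close relative of March1, was at 3.42 to 3.88 throughout and was not called. Among 5 costimulatory genes Cd86, a ligand of CD28, rose (2.39 and 2.14) and so did the adhesion gene Icam1 (0.63 and 0.61). The ICOS ligand gene Icosl fell (-6.55 and -5.08), as did Cd40 (-0.38 and -0.35), and Cd80 fell in knockout cells (-0.80). Of the 4 genes listed as a check of activation, Myc rose (1.43 and 1.73). The immediate early gene Nr4a1 was lower at 3 h than at rest (-1.33 and -0.64). Cd69 fell in Cre-only cells (-0.36, edgeR adjusted p = 0.0326) and was not called in knockout cells (-0.11). Egr1 fell in knockout cells (-0.62, edgeR adjusted p = 0.00894) and was not called in Cre-only cells (-0.24).

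Of 13 tested genes of class I presentation, the neighbouring pathway, 4 rose in each genotype, where 38.6% and 37.7% of all genes were called higher. These were the peptide-trimming enzyme Erap1 (1.89 in Cre-only and 1.66 in knockout cells), and Canx (1.76 and 1.61), Pdia3 (1.09 and 1.11) and Calr (0.83 and 0.91), whose products help class I chains fold. In Cre-only cells 7 fell, led by the class I chain H2-D1 (-0.94), Psmb10 (-0.81) and Psmb8 (-0.80), and in knockout cells 6 fell, where 36.4% and 36.6% were called lower. Tapbp, which encodes the peptide-loading chaperone tapasin, was among the 7 (-0.21, edgeR adjusted p = 0.0439) and was not called in knockout cells (-0.0787). B2m, the light chain of class I, and Nlrc5, the class I counterpart of Ciita, were at 0.03 and 0.06 in Cre-only cells and not called. Of the 8 tested genes that lie between H2-Oa and H2-Eb1 and are not members, 5 fell and 1 rose in Cre-only cells, and 5 fell and 0 rose in knockout cells. Tap1 (-0.56) and Tap2 (-0.47) fell in Cre-only cells, and Brd2, which sits in the same interval, was at 0.12 and not called.

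**Figure D5:**
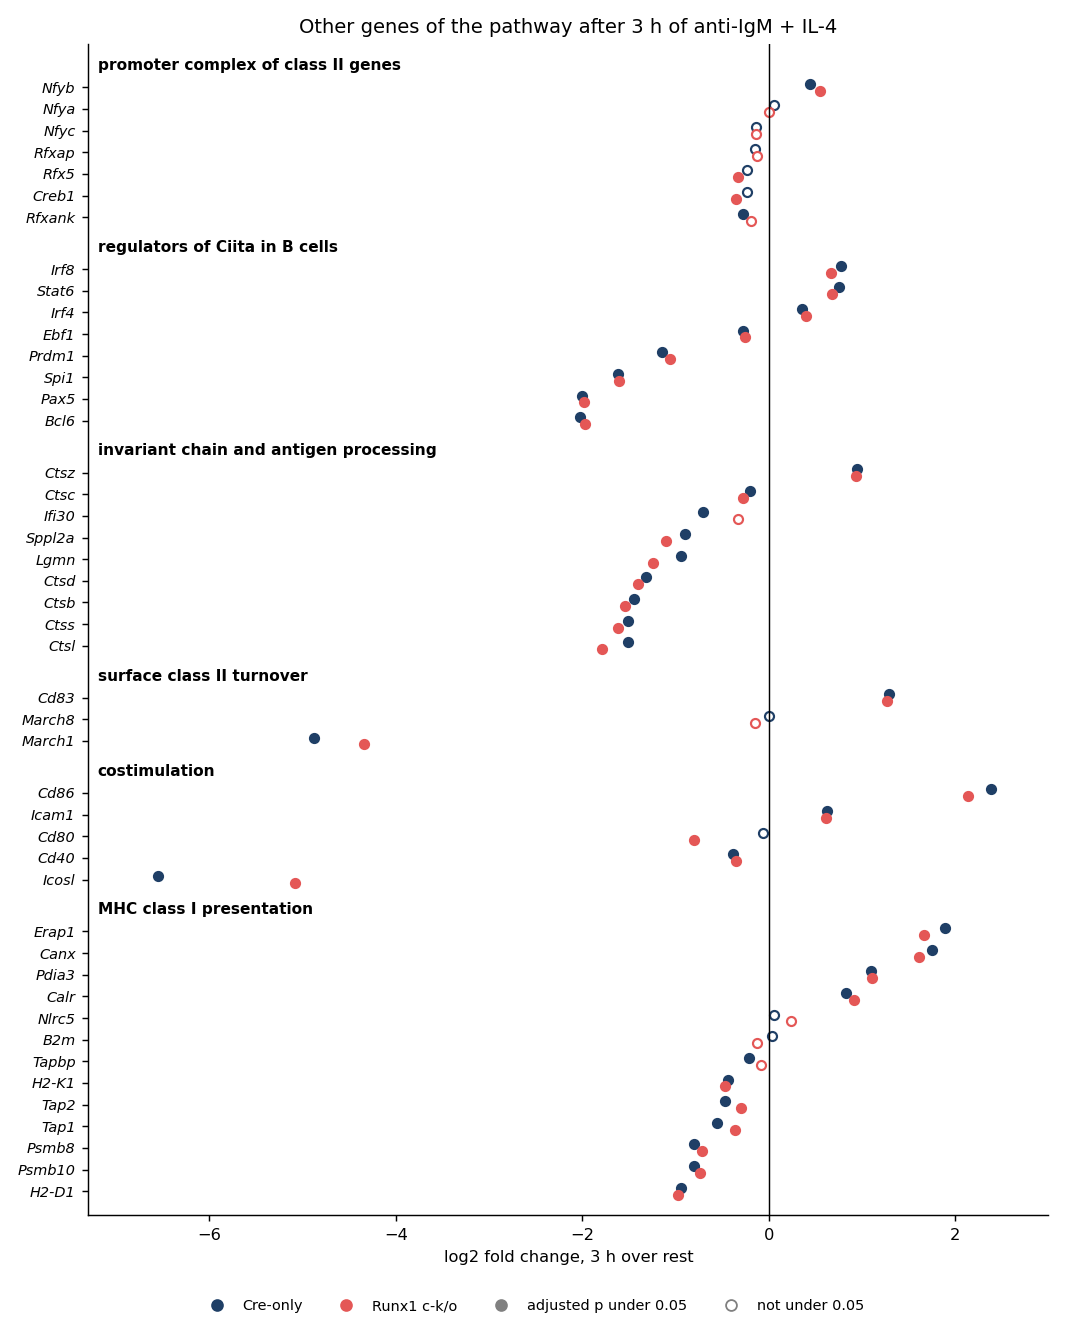
Log2 fold change after 3 h of anti-IgM and IL-4 for other genes of the pathway, grouped by list, in Cre-only and knockout cells; filled points passed the adjusted threshold. March1 and Icosl lie farthest to the left and Cd86 farthest to the right.

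The genes with the profile most like the mean of H2-Aa, H2-Ab1, H2-Eb1 and Cd74 over the 12 libraries, each centred on its own mean, were Rpl24, Ssu72, Psmd8, Sec61g and Ppp2cb, at root mean square log2 distances of 0.0300 to 0.0467. Those nearest to Ciita were Ap1g1, Cnot1, Smcr8, Cbx5 and Sec16a, at 0.0667 to 0.0884. The libraries share groups and the 2 that stood apart, and these distances were not tested. Each of the 5 genes near Ciita was, like it, higher after activation in Cre-only cells and lower in knockout than in Cre-only cells at 3 h, by -0.43 to -0.29 on the log2 scale, which the choice by profile itself sets.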

How the data were processed

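Per the labels and the study's methods, the authors sequenced stranded polyA libraries, with ERCC RNA added to the lysates, demultiplexed with CASAVA 1.8.4, aligned with TopHat2 2.0.11 to mm9 (NCBIM37) and counted with featureCounts; the deposited table holds raw counts per Ensembl gene. The strand setting and the treatment of reads that map to several genes are not given in the sources used here.

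Groups came from the labels. Genes were kept by edgeR 4.0.16 filterByExpr (at least 10 counts), scaled by TMM, and tested by robust quasi-likelihood F tests in 1 model of 4 groups over all 12 libraries (R 4.3.3, limma 3.58.1), with Benjamini-Hochberg adjustment over 13538 genes at 0.05. Alternatives included DESeq2 1.42.0, a RUVs factor, other scalings and filters, replicate blocks and leaving out each library. The steps were tested on simulated data. RPKM used the union of exons of the NCBIM37 annotation, and ratios were compared by two-sided exact permutation tests in scipy 1.17.1. Named genes were all members and Runx1, each list gene called between genotypes, the 3 called list genes of largest change in each activation comparison, further genes of short lists, and the 5 nearest profiles. The members and lists were chosen with earlier results of these data known. Genes of other lists named beyond that rule were chosen after their values were seen. A further marker gene is not reported here and was left out of its list.

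Resting and 3-h samples of the same replicate number deviated together in Cre-only cells (r across genes 0.275, 0.176 and 0.144). In Runx1 c-k/o cells only those of number 3 did (-0.254, -0.264 and 0.254). Across different numbers r ran from -0.192 to 0.00479 in Cre-only and from -0.428 to 0.477 in knockout cells. The highest knockout values joined resting replicates 2, 3 and 1 to 3-h replicates 1, 2 and 3 (0.477, 0.309 and 0.268). The first of these joins the 2 libraries that stood apart. The numbers could therefore be read as pairs in Cre-only cells, from the data alone, since the labels state no shared animal or day. The main tests left this pairing out, and only the replicate blocks used it. The blocks went by number in knockout cells too, where the highest r joined other numbers. Between genotypes r lay between -0.0665 and 0.0680.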

Additional observations from a re-analysis of the deposited data

How the results depend on the processing

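Genes called between genotypes varied most. At 3 h 375 became 707 with DESeq2, 1036 and 1235 with the RUVs factor in edgeR and DESeq2, 158 with only the groups compared, 914 without the 2 libraries that stood apart (an alternative chosen after seeing the data), and 180 to 617 with 1 library left out (180, 194 and 229 without Cre-only replicates 1, 2 and 3 of that time, and 617 without knockout replicate 3). At rest 202 became 378, 524, 611 and 598 with DESeq2, the factor in edgeR, the factor in DESeq2 and without those 2 libraries, and 81 to 386 with 1 library left out (86, 81 and 93 without the resting Cre-only replicates, 129 and 88 without resting knockout replicates 1 and 3, and 386 without 3-h knockout replicate 1). The interaction's 11 became 79, 142, 250 and 187 in the same order, 4 with a replicate block within each genotype, and 4 to 31 with 1 library left out (17 without resting knockout replicate 2 and 31 without 3-h replicate 1). Of the members, 1 (edgeR) and 2 (DESeq2) were called at 3 h with the factor. The cause was not tested.

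With the factor, the activation change of H2-Ab1 was -0.34 in edgeR and -0.45 in DESeq2 in Cre-only cells and -0.31 and -0.37 in knockout cells, and that of H2-Eb1 was -0.0980, -0.20, -0.0175 and -0.0803. The resting difference of H2-Ob was -0.0255 with upper quartile scaling, -0.0139 with 10 counts in every library, -0.000258 with the factor in DESeq2, -0.0149 with only the groups compared, and -0.0298 to 0.0445 with 1 library left out (0.0497 without both libraries). Interactions near 0 changed sign: H2-DMb1 to 0.0431 with DESeq2 size factors, 0.0428 with the Wald test, 0.0516 with upper quartile scaling, 0.0525 with 10 counts in every library and 0.0354 with the factor in DESeq2; H2-Aa to -0.0210 with the factor in edgeR and -0.000210 with the replicate block within genotype. Without both libraries H2-Aa, H2-Ab1, Cd74, H2-DMa and H2-DMb2 were at -0.0285, -0.0396, -0.0485, -0.0377 and -0.000510. With 1 library left out the interactions ran from -0.14 to 0.15 (H2-Aa), -0.14 to 0.21 (H2-Ab1), -0.0864 to 0.29 (H2-Eb1), -0.12 to 0.24 (Cd74), -0.0765 to 0.15 (H2-DMa), -0.0738 to 0.0424 (H2-DMb1), -0.0368 to 0.12 (H2-DMb2) and -0.16 to 0.0229 (H2-Oa).

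In knockout cells the call of H2-Ab1 on activation was lost with a replicate block (0.44, edgeR adjusted p = 0.0584) and held in 5 of 12 fits with 1 library left out. The block within each genotype ended the calls of 2 members, Cd74 in Cre-only cells (edgeR adjusted p = 0.0527) and H2-Ab1 in knockout cells (0.42, edgeR adjusted p = 0.0830). With 3 libraries a group, small differences between genotypes could not be told from the spread.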
